A study of Mus musculus with 64 samples.

Results

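Synaptic vesicles are filled with transmitter, docked at the active zone, fused by SNARE proteins when calcium enters the terminal, and retrieved by endocytosis. The genes described here are 35 that act in this cycle, chosen by symbol from 16673 genes listed in any of 3 brain tables of a mouse study of chronic stress. None of the 3 tables lacked a member. They were grouped by role into 12 genes for vesicle proteins and transporters, 3 calcium sensors, 4 SNAREs, 6 fusion regulators, 5 active zone scaffolds and 5 endocytosis genes.

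The study sequenced RNA from prefrontal cortex, hippocampus and hypothalamus of male BALB/c mice aged 28 weeks. In each region 8 animals came from Unpredictable Chronic Mild Stress (UCMS), a changing schedule of mild stressors that ran for 9 weeks, and 8 controls had not been stressed. The same 16 animals supplied all 3 regions, so there were 48 brain libraries, each from 1 animal and 1 region. Tissue was collected 14 to 16 hours after the last stressor, and directional libraries were built from 100 ng of RNA after removal of ribosomal RNA. The deposited values were normalized levels read as log2 (the base was inferred from the values), sequencing depth is unknown, and each region's table had been normalized on its own. All levels and differences given here are on that log2 scale. Levels of different genes were not compared, because the values are not known to be per transcript length.

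In excitatory terminals, vesicles are loaded with glutamate by the transporters VGLUT1 (Slc17a7), typical of cortical and hippocampal neurons, and VGLUT2 (Slc17a6), typical of hypothalamic and thalamic neurons. Fusion is carried out by syntaxin-1, SNAP-25 and a VAMP on the vesicle, is triggered by a synaptotagmin that binds calcium, and is held ready by complexins and Munc13. Synaptotagmin-2 and VAMP1 are the forms known from fast, caudal and inhibitory terminals, while synaptotagmin-1 and VAMP2 prevail in forebrain terminals.

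The regional identity of the tissue was checked on marker genes. Tbr1 and Lamp5 had their highest control means in prefrontal cortex, Prox1, Wfs1 and Fibcd1 in hippocampus, and Pmch in hypothalamus (9.40), with Avp (9.09), Oxt (7.45) and Hcrt (8.27) listed in the hypothalamus table alone. Exceptions were Fezf2, a cortical marker with its highest mean in hippocampus (4.89), and C1ql2, a hippocampal marker with its highest mean in hypothalamus (5.77). Control replicate 2 of prefrontal cortex stood apart: its mean level over 6 cortical markers was 4.11 against 5.03 to 5.63 in the other 15 libraries, its choroid plexus markers 7.93 against 3.32 to 4.76, its myelin markers 7.17 against 5.38 to 6.70, and its neuronal markers 6.54 against 6.67 to 7.01. Another 9 libraries were rich in hemoglobin RNA, with Hbb-bs at 14.03 to 14.57 against 4.02 to 9.63 in the other 39. Among these were 4 hypothalamus libraries (control replicates 1 and 7, UCMS replicates 6 and 8), whose cortical marker means were 4.19 to 4.62 against 3.16 to 3.91 in the other 12. In the 3 of hippocampus (control replicates 1 and 7, UCMS replicate 6), the hypothalamic markers listed there, Pmch and Pomc, averaged 5.10 to 5.65 against 1.17 to 3.46 in the other 13. The remaining 2 were control replicate 1 and UCMS replicate 6 of prefrontal cortex. Where both were computed, many of the results that rest on these libraries are given with and without them.

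The sequence just upstream of the annotated start is shown for Syt2, Vamp1, Slc17a7, Sv2b and Slc17a6. These were picked because they recur in the regional and animal-to-animal patterns below. Other members differed as much by region: the control means of Stx1a, Bsn and Cplx2 ranged by 1.69, 1.62 and 1.43. Those of Vamp1 and Syt2 ranged by 1.38 and 1.22. Sequences and coordinates are from RefSeq on GRCm38.p6, whereas the deposited tables used GRCm38.p4. Each window holds the 250 bases before the start, written 5′ to 3′ on the gene's strand, and for Syt2 the 172 that lie before the gene's annotated span. Where RefSeq gives several starts (2 for Syt2, 2 for Slc17a6, 4 for Sv2b), the farthest upstream is shown. Capitals mark matches on either strand to 3 motifs chosen with the windows at hand: the Sp1 box GGGCGG, the cyclic AMP response element TGACGTCA, and the core of RE1, the site read by the neuronal repressor REST (GCACC, any 2 bases, then GGACAG). In the windows shown, no match overlapped a match to another motif. Syt2 is shown from chr1:134646362-134646533 (plus strand), Vamp1 from chr6:125215331-125215580 (plus strand), Slc17a7 from chr7:45163671-45163920 (plus strand), Sv2b from chr7:75309263-75309512 (minus strand) and Slc17a6 from chr7:51621580-51621829 (plus strand).
Syt2: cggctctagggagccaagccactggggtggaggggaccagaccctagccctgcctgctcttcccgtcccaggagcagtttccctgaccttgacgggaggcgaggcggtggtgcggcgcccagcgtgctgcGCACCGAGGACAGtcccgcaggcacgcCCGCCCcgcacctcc
Vamp1: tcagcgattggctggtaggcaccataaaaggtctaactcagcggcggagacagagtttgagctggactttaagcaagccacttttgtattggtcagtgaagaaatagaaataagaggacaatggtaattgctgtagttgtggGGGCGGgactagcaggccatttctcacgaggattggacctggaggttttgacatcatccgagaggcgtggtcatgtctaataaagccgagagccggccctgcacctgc
Slc17a7: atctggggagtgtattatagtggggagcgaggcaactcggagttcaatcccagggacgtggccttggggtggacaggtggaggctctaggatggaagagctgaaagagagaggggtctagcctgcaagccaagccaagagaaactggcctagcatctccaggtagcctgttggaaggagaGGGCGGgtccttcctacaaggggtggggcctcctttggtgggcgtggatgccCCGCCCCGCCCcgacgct
Sv2b: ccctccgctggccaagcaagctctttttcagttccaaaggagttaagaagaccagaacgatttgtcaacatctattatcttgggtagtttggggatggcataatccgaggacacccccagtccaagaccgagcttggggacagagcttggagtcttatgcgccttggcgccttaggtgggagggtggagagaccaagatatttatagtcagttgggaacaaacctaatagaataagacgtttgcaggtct
Slc17a6: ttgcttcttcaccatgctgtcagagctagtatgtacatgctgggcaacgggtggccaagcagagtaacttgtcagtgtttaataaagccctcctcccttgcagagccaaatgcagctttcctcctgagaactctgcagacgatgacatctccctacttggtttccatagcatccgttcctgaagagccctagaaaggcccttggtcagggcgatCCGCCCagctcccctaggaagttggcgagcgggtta
A window of 250 bases was given for 31 of the 35 members, Syngr3, Doc2a, Snap25 and Vamp2 being the members with none. GGGCGG was present in a window of 22 of the 31 (71.0%) and of 35.4% of all 27025 genes with a window. The capitals in the Syt2 sequence mark the RE1 core, which 1 of the 31 members held against 0.0814% of all genes, and 1 Sp1 box. TGACGTCA was in windows of Sh3gl2 and Syn1 alone among members (6.45% against 1.77% of all genes). These matches describe letters in the windows and say nothing of binding.

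Levels in unstressed animals were described by region first, without a test, since the tables were normalized separately. The regions differed mostly in the 2 glutamate transporters, in Sv2b, and in a set of release genes that were lower in hypothalamus. Of 35 members, 13 had the order hippocampus, prefrontal cortex, hypothalamus, and 12 the order prefrontal cortex, hippocampus, hypothalamus, from highest to lowest control mean. All 8 hypothalamus levels lay below all 8 hippocampus levels for 24 members and above them for 5, while 9.12% and 13.1% of all genes listed in both tables lay wholly below and above. Between hypothalamus and prefrontal cortex, 9 members lay wholly below and 4 wholly above, against 5.35% and 13.5% of all genes. Between hippocampus and prefrontal cortex, 5 lay wholly above and 0 below, against 4.72% and 2.13% of all genes. The median member was 0.38 lower in hypothalamus than in hippocampus (difference -0.38, all genes 0.09), 0.28 lower than in prefrontal cortex (difference -0.28, all genes 0.13), and level between hippocampus and prefrontal cortex (difference 0.02, all genes 0.04). Without control replicate 2 of prefrontal cortex, 20 members lay wholly lower in hypothalamus than in prefrontal cortex (8.14% of all genes), and 4 (Rph3a, Doc2a, Stx1a and Rims1) wholly lower in hippocampus than in prefrontal cortex (4.01%). In bulk tissue, fewer cells of a type and less RNA per cell cannot be told apart.

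**Figure D1:**
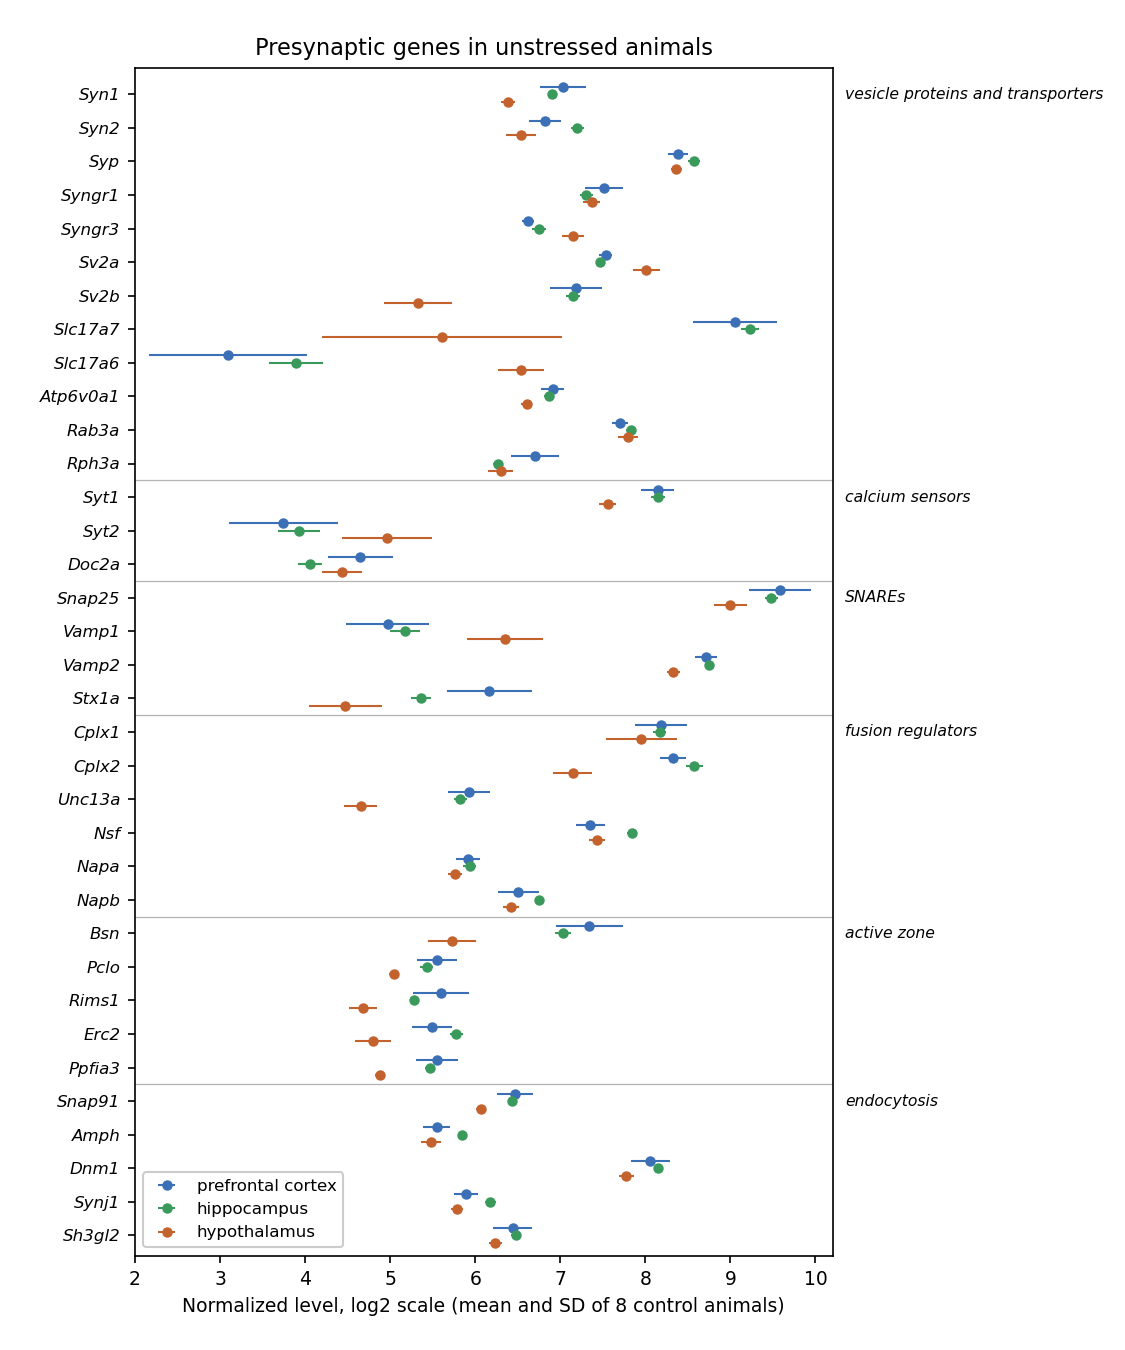
Control levels of the 35 members, grouped by role, as mean and SD of 8 animals per region on the log2 scale. Hypothalamus (orange) sits far to the left for Slc17a7, Sv2b, Stx1a, Bsn, Cplx2 and Unc13a, and far to the right for Slc17a6, Vamp1 and Syt2.

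Among vesicle proteins and transporters, Slc17a7 had the widest regional range. In controls it ran from 9.07 (median 9.26) to 9.35 in hippocampus, from 7.91 (median 9.25) to 9.41 in prefrontal cortex and from 3.33 (median 5.61) to 7.48 in hypothalamus. Hippocampus and prefrontal cortex overlapped and hypothalamus lay apart from both, 3.62 lower than hippocampus on average, a linear ratio of 12.3. Its mean in hypothalamus was 5.61 ± 1.41 (SD, n = 8), a spread more than 10 times that of hippocampus (9.23 ± 0.10, SD, n = 8). These means, SDs and the ratio include the hemoglobin-rich control replicates 1 and 7. In hypothalamus these had the highest control levels, 7.484 and 7.185 (next 6.351), and in hippocampus the lowest, 9.071 and 9.082. Without the hemoglobin-rich libraries, hypothalamus still lay wholly below both other regions. The low value of prefrontal cortex was control replicate 2, and the next lowest was 8.83.

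Slc17a6 was highest where Slc17a7 was lowest, in hypothalamus. Its control levels were 6.18 (median 6.57) to 6.90 in hypothalamus, 3.36 (median 3.87) to 4.28 in hippocampus and 1.45 (median 2.96) to 4.67 in prefrontal cortex. Hypothalamus exceeded both other regions in all 8 animals, by 3.45 over prefrontal cortex (linear ratio 10.9) and by 2.65 over hippocampus (linear ratio 6.26), while the latter pair overlapped. The highest prefrontal level was in the hemoglobin-rich control replicate 1.

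Sv2b and Sv2a, the paralogous SV2 glycoproteins of the vesicle membrane, moved apart by region. Sv2b was 5.33 ± 0.40 in hypothalamus, 7.15 ± 0.08 in hippocampus and 7.19 ± 0.31 in prefrontal cortex (SD, n = 8 each), with hypothalamus wholly below both. Sv2a was 8.01 ± 0.16 in hypothalamus, 7.53 ± 0.08 in prefrontal cortex and 7.47 ± 0.05 in hippocampus (SD, n = 8 each), with hypothalamus wholly above both. Syngr3, a synaptogyrin of the vesicle membrane, also lay wholly higher in hypothalamus (7.15 ± 0.13) than in hippocampus (6.75 ± 0.08) or prefrontal cortex (6.62 ± 0.07; SD, n = 8 each).

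The general vesicle proteins varied less. Syp, which encodes synaptophysin, had control means between 8.36 and 8.57 in the 3 regions, and Rab3a, the small GTPase that guides docking, had the narrowest range of all members, 0.13. The synapsins, which tether the reserve pool, differed from each other: Syn1 was highest in prefrontal cortex (7.03 ± 0.27) and Syn2 in hippocampus (7.20 ± 0.08; SD, n = 8 each), where all 8 levels lay above those of prefrontal cortex (6.82 ± 0.18). Both were lowest in hypothalamus (6.39 ± 0.08 and 6.54 ± 0.18). Syngr1, another synaptogyrin, Rph3a, a Rab3 effector, and Atp6v0a1, a subunit of the proton pump that energizes filling, had ranges of 0.20, 0.44 and 0.30 between regional means.

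The calcium sensors Syt1 and Syt2, fast triggers of fusion, differed in the place of hypothalamus, lowest for Syt1 and highest for Syt2. Syt1 control levels were 8.03 (median 8.16) to 8.26 in hippocampus, 7.75 (median 8.18) to 8.41 in prefrontal cortex and 7.46 (median 7.53) to 7.77 in hypothalamus. Syt2 control levels were 4.43 (median 4.82) to 5.65 in hypothalamus, 3.66 (median 3.90) to 4.35 in hippocampus and 2.84 (median 3.55) to 4.73 in prefrontal cortex. For both genes hypothalamus lay apart from hippocampus, below for Syt1 and above for Syt2, but overlapped prefrontal cortex. Without control replicate 2 of prefrontal cortex, Syt1 lay wholly lower in hypothalamus than there, and without the hemoglobin-rich libraries Syt2 lay wholly higher. Doc2a, a sensor linked to spontaneous and asynchronous release, was 4.65 ± 0.38 in prefrontal cortex, 4.43 ± 0.24 in hypothalamus and 4.06 ± 0.14 in hippocampus (SD, n = 8 each), with neighbouring regions overlapping.

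The vesicular SNAREs split in the same manner. Vamp1 control levels were 5.95 (median 6.11) to 7.06 in hypothalamus, 4.85 (median 5.18) to 5.45 in hippocampus and 4.29 (median 4.96) to 5.74 in prefrontal cortex, so hypothalamus lay above both (linear ratios 2.25 and 2.60). Vamp2 was 8.33 ± 0.08 in hypothalamus, wholly below hippocampus (8.75 ± 0.05) and prefrontal cortex (8.71 ± 0.13; SD, n = 8 each). Of the SNAREs of the plasma membrane, Stx1a, which encodes syntaxin-1A, was 4.47 ± 0.43 in hypothalamus, 5.36 ± 0.12 in hippocampus and 6.17 ± 0.50 in prefrontal cortex (SD, n = 8 each), the last pair overlapping through control replicate 2 of prefrontal cortex. Snap25 was 9.00 ± 0.19, 9.48 ± 0.07 and 9.58 ± 0.37 in the same order, hypothalamus lying wholly below hippocampus.

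**Figure D2:**
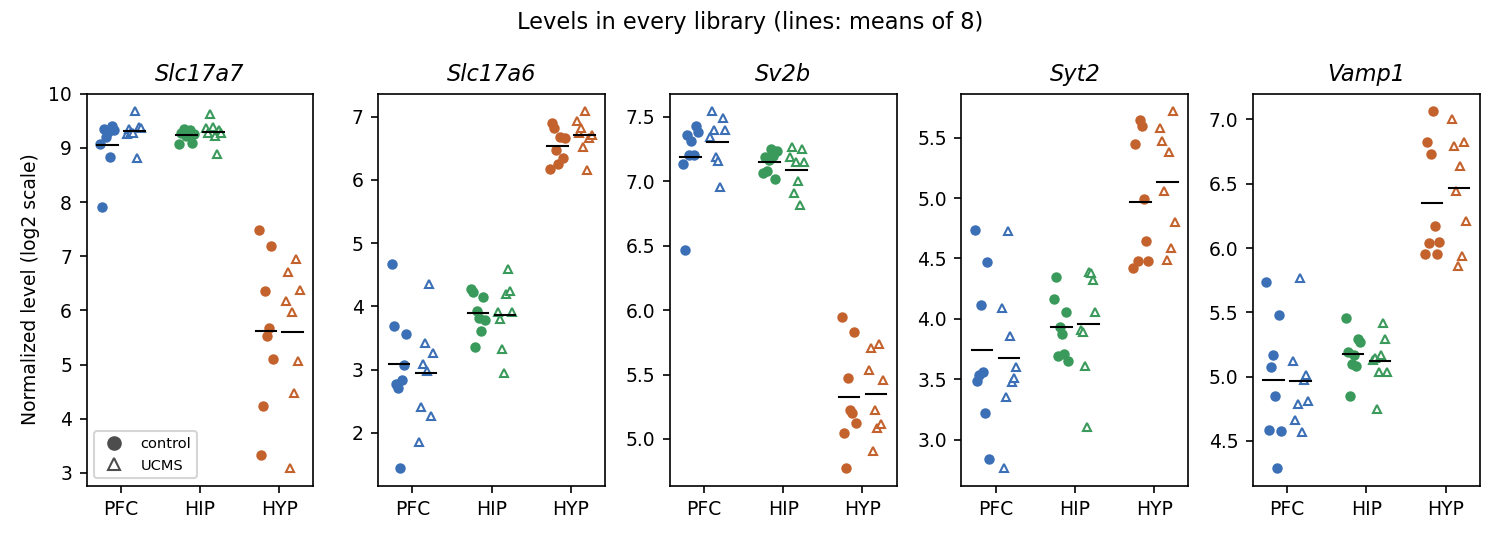
Levels of Slc17a7, Slc17a6, Sv2b, Syt2 and Vamp1 in each of 48 libraries on the log2 scale (PFC, prefrontal cortex; HIP, hippocampus; HYP, hypothalamus; filled circles, control; open triangles, UCMS; lines, means of 8). Means of hypothalamus lie farther from those of the other regions than the treatment means lie from each other within any region. Syt2 levels of hypothalamus and prefrontal cortex overlap, and hypothalamic Slc17a7 spreads from 3.09 to 7.48.

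Among fusion regulators, Cplx2 and Unc13a were the regional members. Cplx2, one of 2 complexins that clamp and promote fusion, was 8.58 ± 0.10 in hippocampus, 8.32 ± 0.16 in prefrontal cortex and 7.14 ± 0.23 in hypothalamus (SD, n = 8 each), while its partner Cplx1 ranged by 0.23 between means and overlapped throughout. Unc13a, the priming factor Munc13-1, was 5.92 ± 0.25, 5.83 ± 0.07 and 4.65 ± 0.19 in prefrontal cortex, hippocampus and hypothalamus (SD, n = 8 each). Both lay wholly lower in hypothalamus than in hippocampus and prefrontal cortex. Nsf, the ATPase that recycles SNAREs, was instead highest in hippocampus (7.84 ± 0.06) and wholly above prefrontal cortex (7.35 ± 0.17) and hypothalamus (7.43 ± 0.09; SD, n = 8 each). Its adaptors Napa and Napb ranged by 0.17 and 0.33 between means.

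All 5 active zone genes lay wholly lower in hypothalamus than in hippocampus in controls (9.12% of all genes did). In the UCMS libraries Pclo overlapped. Bsn, the scaffold bassoon, showed the widest gap, with 5.72 ± 0.28 in hypothalamus, 7.03 ± 0.10 in hippocampus and 7.34 ± 0.39 in prefrontal cortex (SD, n = 8 each), linear ratios of 2.48 and 3.07. Its relative piccolo (Pclo) was 5.05 ± 0.06, 5.43 ± 0.08 and 5.55 ± 0.24 in the same order. Rims1, which links vesicles to calcium channels, Ppfia3, a liprin, and Erc2, an ELKS scaffold, had ranges of 0.92, 0.68 and 0.98, Erc2 being highest in hippocampus and the other 2 in prefrontal cortex.

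The 5 endocytosis genes also lay wholly lower in hypothalamus than in hippocampus in controls (9.12% of all genes did). In the UCMS libraries Amph and Dnm1 still did, while Snap91, Synj1 and Sh3gl2 overlapped. Their ranges of regional means were 0.38 for Dnm1 (the fission GTPase dynamin-1), 0.36 for Amph (amphiphysin), 0.40 for Synj1 (the lipid phosphatase synaptojanin-1), 0.40 for Snap91 (the clathrin adaptor AP180) and 0.25 for Sh3gl2 (endophilin A1). Amph (5.85 ± 0.05 against 5.55 ± 0.16) and Synj1 (6.18 ± 0.06 against 5.90 ± 0.14) lay wholly higher in hippocampus than in prefrontal cortex (SD, n = 8 each). In the UCMS libraries no member did.

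UCMS was then compared with control within each region, the question the design was built on. No member passed the test in any region, and no gene of the tables did. Limma with Benjamini-Hochberg adjustment was fitted to 14127 genes of prefrontal cortex, 14015 of hippocampus and 14539 of hypothalamus, and called 0 members and 0% of genes at an adjusted p under 0.05 in each. Of the members, 34 were tested in prefrontal cortex, where Slc17a6 fell below the filter on low levels, and 35 in each of the other regions. At an unadjusted p under 0.05, limma picked 0 members in prefrontal cortex (2.18% of genes), 1 in hippocampus (2.95%) and 2 in hypothalamus (2.12%). The smallest adjusted p of a member was 0.987, 0.990 and 0.99999 in prefrontal cortex, hippocampus and hypothalamus. In no region did any gene have all 8 UCMS levels outside the range of all 8 controls on 1 side (0% of genes tested).

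The 3 members picked at an unadjusted p belonged to the active zone and to endocytosis. Pclo in hypothalamus ran from 4.93 (median 5.05) to 5.11 in controls and from 5.08 (median 5.17) to 5.31 after UCMS. The groups overlapped slightly, with 6 of 8 UCMS animals above every control. The difference was 0.13 ± 0.04 (SE; unadjusted p = 0.00649, adjusted p = 0.99999, limma), and 0.14 without the hemoglobin-rich libraries.

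Snap91 in hypothalamus ran from 5.96 (median 6.08) to 6.15 in controls and from 6.03 (median 6.17) to 6.29 after UCMS, again with 6 of 8 above every control (difference 0.09 ± 0.04, SE; unadjusted p = 0.0388, adjusted p = 0.99999, limma). Bsn in hippocampus ran from 6.88 (median 7.03) to 7.19 in controls and from 6.95 (median 7.16) to 7.59 after UCMS, with 4 of 8 above every control (difference 0.17 ± 0.07, SE; unadjusted p = 0.0409, adjusted p = 0.990, limma). In prefrontal cortex the smallest p belonged to Rab3a, which ran from 7.49 (median 7.73) to 7.78 in controls and from 7.69 (median 7.77) to 8.24 after UCMS (difference 0.13 ± 0.07, SE; unadjusted p = 0.107, adjusted p = 0.987, limma), with 3 of 8 above every control.

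The next smallest p values were larger and the groups overlapped widely. In prefrontal cortex Syp ran from 8.12 (median 8.39) to 8.51 in controls and from 8.36 (median 8.45) to 8.73 after UCMS (unadjusted p = 0.157, adjusted p = 0.987, limma), and Nsf from 7.002 (median 7.39) to 7.55 and from 7.37 (median 7.45) to 7.59 (difference 0.10; unadjusted p = 0.159, adjusted p = 0.987, limma). In hippocampus Pclo ran from 5.30 (median 5.41) to 5.59 in controls and from 5.19 (median 5.58) to 5.72 after UCMS (difference 0.12; unadjusted p = 0.0897, adjusted p = 0.990, limma). Unc13a there differed by 0.06 (unadjusted p = 0.242, adjusted p = 0.990, limma), and Synj1 in hypothalamus by 0.07 (unadjusted p = 0.10, adjusted p = 0.99999, limma).

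The members that differed most by region had wide limits. For Slc17a7 the UCMS difference was 0.25 (95% interval -0.13 to 0.63) in prefrontal cortex, 0.06 (-0.10 to 0.22) in hippocampus and -0.01 (-1.33 to 1.31) in hypothalamus. For Slc17a6 it was -0.03 (-0.45 to 0.40) in hippocampus and 0.16 (-0.11 to 0.43) in hypothalamus. Control replicate 2 had the lowest Slc17a7 level of prefrontal cortex, and without it the difference there was 0.09.

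For Syt2 the difference was -0.07 (95% interval -0.66 to 0.52) in prefrontal cortex, 0.03 (-0.32 to 0.38) in hippocampus and 0.17 (-0.32 to 0.66) in hypothalamus. Vamp1 gave -0.01 (-0.43 to 0.42), -0.05 (-0.24 to 0.13) and 0.12 (-0.31 to 0.54). Their counterparts Syt1 and Vamp2 were bounded more closely: Syt1 differed by 0.06 (-0.12 to 0.23), -0.04 (-0.16 to 0.08) and 0.04 (-0.10 to 0.18), and Vamp2 by 0.08 (-0.05 to 0.20), -0.01 (-0.10 to 0.07) and 0.04 (-0.05 to 0.12), in the same order of regions. Snap25 differed by 0.12 (-0.16 to 0.41), -0.05 (-0.16 to 0.05) and 0.11 (-0.08 to 0.29) in prefrontal cortex, hippocampus and hypothalamus.

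Syp differed by 0.09 (95% interval -0.04 to 0.22), -0.02 (-0.11 to 0.07) and 0.05 (-0.05 to 0.15) in prefrontal cortex, hippocampus and hypothalamus, and Syn1 by 0.08 (-0.12 to 0.29), -0.01 (-0.10 to 0.08) and 0.05 (-0.04 to 0.14). Of the complexins, Cplx1 differed by 0.07 (-0.21 to 0.35), -0.00075 (-0.13 to 0.13) and 0.10 (-0.30 to 0.51), and Cplx2 by 0.04 (-0.14 to 0.23), 0.06 (-0.07 to 0.18) and -0.10 (-0.35 to 0.14). Every one of these intervals contained 0.

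By direction alone, the members leaned upward in prefrontal cortex, but that lean rested on 1 library. There 32 of 34 members had a higher mean after UCMS (52% of all genes did), with a median difference of 0.08 and 11 of 11 vesicle genes, 6 of 6 fusion regulators, 5 of 5 active zone genes and 5 of 5 endocytosis genes on the higher side. In control replicate 2, 33 of the 34 members lay below their group mean, by 0.48 on average (mean deviation -0.48). Without that library 23 of 34 members were higher (49.4% of all genes), with a median difference of 0.01, as drawn in the plot of differences. In hippocampus 20 of 35 members were higher (50.1% of all genes, median 0.01), among them 0 of 4 SNAREs, and in hypothalamus 25 of 35 (50.5% of all genes, median 0.05), among them 5 of 5 endocytosis genes. Without the hemoglobin-rich libraries 34 of 34 members were higher in prefrontal cortex (51% of all genes), 25 of 35 in hippocampus (51.2%) and 29 of 35 in hypothalamus (48.2%). The prefrontal count still included control replicate 2. No fit left out that library and the hemoglobin-rich ones together.

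**Figure D3:**
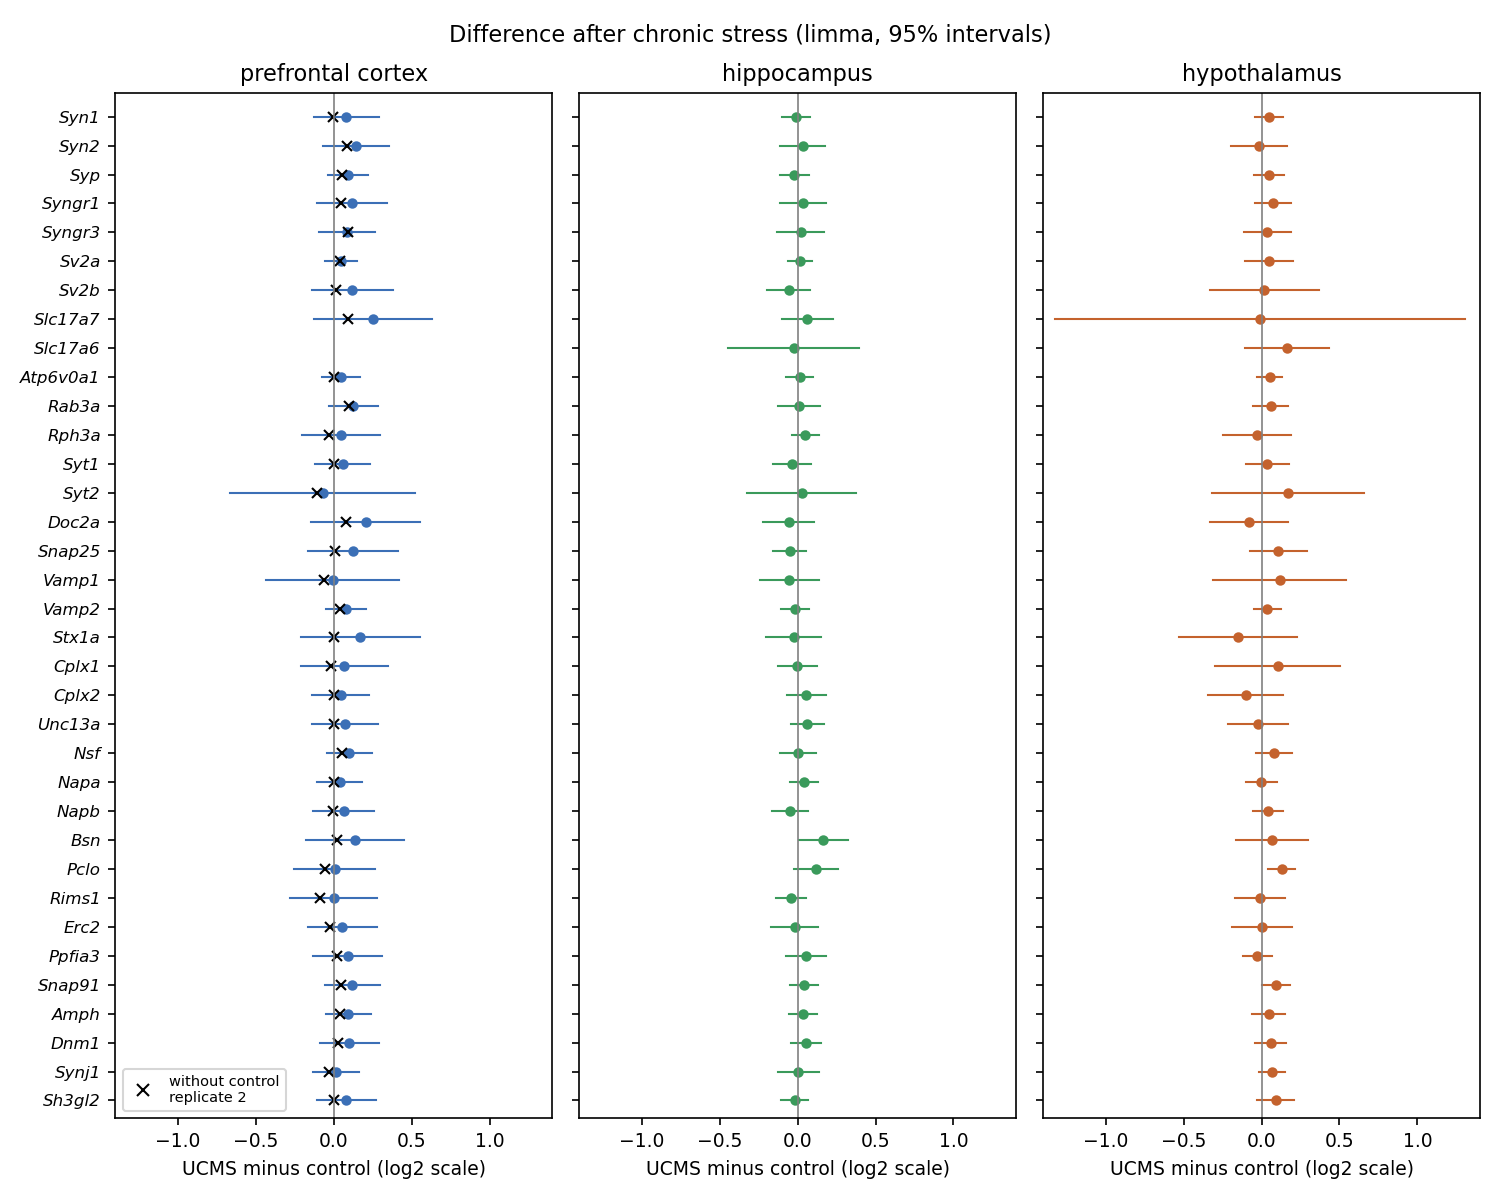
UCMS minus control on the log2 scale for each member in the 3 regions (points, limma estimates; bars, 95% intervals; crosses, prefrontal cortex without control replicate 2; Slc17a6 was not tested in prefrontal cortex). Points of prefrontal cortex sit to the right of 0 for 32 of 34 members, and the crosses fall back around 0.

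Averaging the 3 regions of each animal gave 0 of 34 members past the threshold (0% of 13517 genes), and 1 at an unadjusted p under 0.05 (3.62% of genes). That member was Snap91 (control 6.32 ± 0.06, UCMS 6.41 ± 0.08, SD, n = 8 each; difference 0.08 ± 0.04, SE; unadjusted p = 0.0384, adjusted p = 0.959, limma), whose unadjusted p was 0.0836 without the animal of control replicate 2. In this average 31 of 34 members were higher after UCMS (51% of all genes), 27 of 34 without that animal (50.3%), and 34 of 34 without the animals with hemoglobin-rich libraries (50.3%), with medians of 0.04, 0.02 and 0.08. Without those animals 5 members and 6.85% of all genes had an unadjusted p under 0.05, Bsn among the members (difference 0.22 ± 0.06, SE; unadjusted p = 0.00497, adjusted p = 0.699, limma). Leaving out the animals with hemoglobin-rich libraries kept the animal of control replicate 2. The UCMS difference was also compared between regions within animals. No member's difference differed between regions at an adjusted p under 0.05 (0% of genes) or at an unadjusted p under 0.05, the smallest unadjusted p values being 0.143 for hippocampus against prefrontal cortex (Syp; 1.61% of genes had p under 0.05), 0.195 for hypothalamus against prefrontal cortex (Doc2a; 2.43%) and 0.104 for hypothalamus against hippocampus (Sh3gl2; 2.26%).

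The members were next followed across animals, with the treatment means removed from the 16 libraries of a region. In prefrontal cortex the members varied together from library to library, with a median Pearson r of 0.63 over 561 member pairs against 0.00 over pairs of all tested genes. The same median was 0.26 over 595 pairs in hippocampus (all genes 0.01) and 0.15 in hypothalamus (all genes 0.03). These are descriptions without a p, since the points share library and dissection. Without control replicate 2 the median of prefrontal cortex was 0.37, and without the 3 hemoglobin-rich libraries that of hippocampus was 0.10. In prefrontal cortex, the median member also followed the mean standardized level of the neuronal markers (r = 0.73) and cortical markers (r = 0.77). It ran against choroid plexus (r = -0.67) and myelin markers (r = -0.38). It also followed the microglia (r = 0.65) and endothelium (r = 0.56) markers and ran against those of GABA neurons (r = -0.44). Over all genes the median r with these lists lay between -0.06 and 0.05. These marker r values include control replicate 2 and were not computed without it. That library lay outside all others of prefrontal cortex on cortical, choroid plexus, myelin and neuronal markers. With neuronal markers, r of the median member was 0.52 in hippocampus (all genes 0.09). In hypothalamus it was 0.18, close to the 0.11 of all genes. A myelin marker score was also removed from the levels of the 16 libraries of each region. For hypothalamus the median r over member pairs was then 0.16 (0.15 before). It was 0.23 for hippocampus (0.26 before) and 0.59 for prefrontal cortex (0.63 before), the last with control replicate 2 included. No other marker list was removed in this way, and the part of other tissue makeup in this co-variation was not tested.

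**Figure D4:**
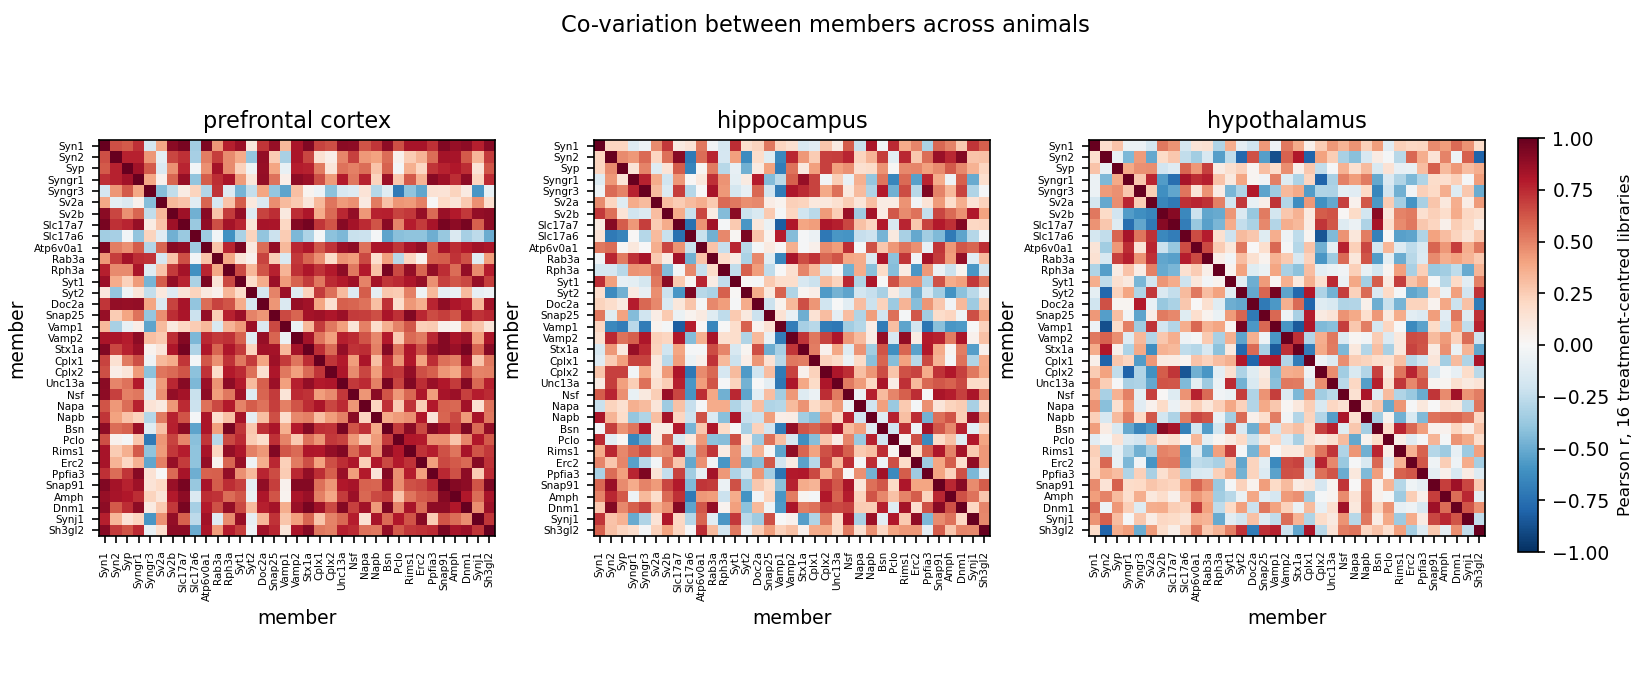
Pearson correlation between members over 16 treatment-centred libraries of each region (red, positive; blue, negative; members in role order). Prefrontal cortex is mostly red apart from Syngr3, Sv2a, Slc17a6, Syt2 and Vamp1, while hypothalamus breaks into blocks of both signs.

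Some members stood outside the common movement. In prefrontal cortex Syngr3 had a mean r of -0.08 with the other members and its lowest r with Pclo (-0.70), and Syt2 (mean r 0.15) and Vamp1 (mean r 0.24) were closest to each other. In hippocampus Vamp1, Slc17a6 and Syt2 had negative mean r with the other members (-0.24, -0.20 and -0.12), and Slc17a6 and Syt2 were closest to each other (r = 0.95). In the 3 hemoglobin-rich hippocampus libraries Slc17a6 was 4.15 to 4.59, against 2.95 to 4.25 in the other 13. Vamp1 was 5.29 to 5.45 against 4.75 to 5.30, and Syt2 4.06 to 4.38 against 3.11 to 4.39. The r values for hippocampus include these libraries. In hypothalamus the endocytosis genes Dnm1 and Snap91 had the highest mean r (0.28 and 0.25) and were each other's closest member (r = 0.85), and Doc2a (-0.09) and Syn2 (-0.05) had the lowest. Across regions of the same animal, a member's levels in hippocampus and prefrontal cortex had a median r of 0.09 (all genes 0.05), in hypothalamus and prefrontal cortex 0.01 (all genes 0.11), and in hypothalamus and hippocampus 0.13 (all genes 0.10).

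For 8 pairs of members, levels were compared in each region, 24 relations in all, with two-sided permutation within treatment of 16 libraries, adjusted with Benjamini-Hochberg over the 24. The pairs were chosen with earlier results of these data known, and the p values do not cover that choice. The pair Syt2 and Vamp1 was related in all 3 regions. In hypothalamus Pearson's r was 0.96 (p = 1e-05, the smallest the permutations can give, adjusted p = 0.00012) and Spearman's rho 0.94 (permutation p = 2e-05, adjusted p = 0.00024), with r = 0.96 without the 2 libraries farthest from the median of Syt2 and 0.95 without the hemoglobin-rich ones. In prefrontal cortex r was 0.86 (permutation p = 0.00017, adjusted p = 0.00102) and rho 0.79 (p = 0.00084, adjusted p = 0.00546), with r = 0.72 without the 2 farthest. In hippocampus r was 0.59 (permutation p = 0.0235, adjusted p = 0.0433) and rho 0.67 (p = 0.00745, adjusted p = 0.0179), with r = 0.72 without the 2 farthest and 0.48 without the hemoglobin-rich libraries. In hypothalamus the relation held within controls (r = 0.94) and within UCMS animals (r = 0.98) alike.

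The glutamate transporters ran against each other in hypothalamus and hippocampus. In hypothalamus Slc17a7 and Slc17a6 had r = -0.69 (permutation p = 0.00513, adjusted p = 0.0112) and rho = -0.68 (p = 0.00711, adjusted p = 0.0179), and r = -0.69 without the 2 libraries farthest from the Slc17a7 median. In hippocampus r was -0.75 (permutation p = 0.00365, adjusted p = 0.00973) and rho -0.75 (p = 0.00165, adjusted p = 0.00768), and r = -0.64 without the 2 farthest. In prefrontal cortex r was -0.37 (permutation p = 0.210, adjusted p = 0.335) and rho -0.31 (p = 0.25, adjusted p = 0.400). The hemoglobin-rich libraries lay at 1 end of these relations. In hippocampus the 3 had Slc17a7 at 8.89 to 9.08 against 9.23 to 9.62 in the other 13, and in hypothalamus the 4 had it at 6.37 to 7.48 against 3.09 to 6.70 in the other 12. Without them r was -0.60 in hippocampus and -0.51 in hypothalamus. Their part in the relation was not tested beyond this.

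Slc17a7 and Sv2b were related most closely in hypothalamus, with r = 0.91 (permutation p = 1e-05, adjusted p = 0.00012) and rho = 0.97 (p = 1e-05, adjusted p = 0.00024). There r was 0.97 without the 2 farthest libraries and 0.85 without the hemoglobin-rich ones, which in this table also had the highest cortical marker means. In prefrontal cortex r was 0.85 (permutation p = 0.00418, adjusted p = 0.0100) and rho 0.56 (p = 0.0279, adjusted p = 0.0557), but r was 0.27 without the 2 farthest libraries, control replicate 2 and UCMS replicate 6, so that relation rested on them. Without control replicate 2 alone, r in prefrontal cortex was 0.60. In hippocampus r was 0.37 (permutation p = 0.266, adjusted p = 0.400) and rho 0.25 (p = 0.378, adjusted p = 0.488), and r was -0.55 without the hemoglobin-rich libraries.

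**Figure D5:**
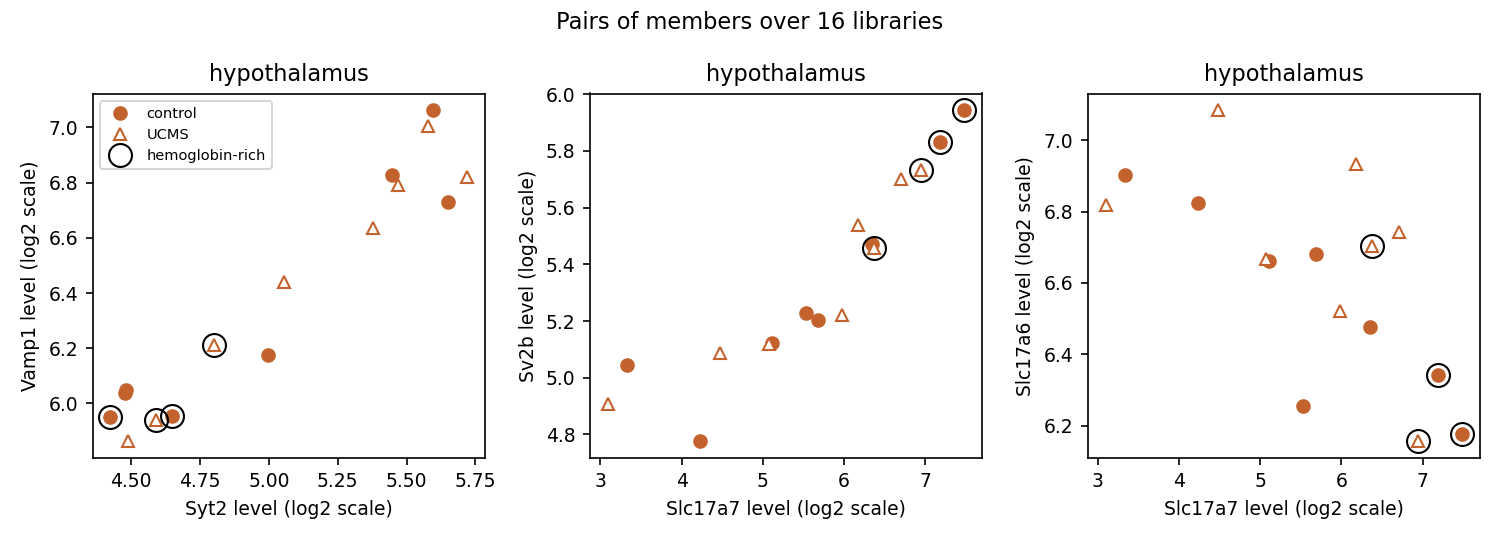
Levels of 3 pairs of members in the 16 hypothalamus libraries on the log2 scale (filled circles, control; open triangles, UCMS; rings, hemoglobin-rich libraries). Syt2 and Vamp1 lie along 1 line, Slc17a7 and Sv2b rise together, and Slc17a7 and Slc17a6 run against each other, the ringed libraries lying at the Slc17a7-high end.

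The SNARE partners Stx1a and Vamp2 were related in all 3 regions, with r = 0.83 in prefrontal cortex (permutation p = 0.00051, adjusted p = 0.00245; rho = 0.74, p = 0.00192, adjusted p = 0.00768), 0.72 in hippocampus (p = 0.00895, adjusted p = 0.0179; rho = 0.69, p = 0.0054, adjusted p = 0.0179) and 0.73 in hypothalamus (p = 0.00339, adjusted p = 0.00973; rho = 0.56, p = 0.0302, adjusted p = 0.0557). Without the 2 libraries farthest on Stx1a the r values were 0.58, 0.53 and 0.47. Without the hemoglobin-rich libraries they were 0.85, 0.83 and 0.72. In prefrontal cortex r was 0.70 without control replicate 2. A further 3 pairs passed in prefrontal cortex. The median r over all 561 member pairs there was 0.63, and 0.37 without control replicate 2. The permutation tested each pair alone, not against other member pairs, so passing does not set a pair apart there. Snap25 and Syt1 had r = 0.86 there (permutation p = 9e-05, adjusted p = 0.00072; rho = 0.61, p = 0.0165, adjusted p = 0.0361), Cplx1 and Cplx2 had r = 0.72 (p = 0.00221, adjusted p = 0.00758; rho = 0.67, p = 0.0074, adjusted p = 0.0179), and Bsn and Pclo had r = 0.70 (p = 0.00202, adjusted p = 0.00758; rho = 0.77, p = 0.00091, adjusted p = 0.00546). Without the 2 farthest libraries, control replicate 2 being 1 of them each time, these were 0.65, 0.58 and 0.47. Without control replicate 2 alone they were 0.74, 0.63 and 0.58.

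The same 3 pairs had r between -0.20 and 0.43 in hippocampus and hypothalamus, with adjusted permutation p values of 0.174 or more for r and 0.387 or more for rho over 16 libraries. For Bsn and Pclo in hippocampus, r was 0.67 without the 2 farthest libraries and -0.34 without the hemoglobin-rich ones. In hypothalamus these values were 0.33 and 0.64. For Snap25 and Syt1 and for Cplx1 and Cplx2, such values lay between 0.11 and 0.40. Whether the relation differed between regions was not tested. Syt1 and Syt2 were related in no region at the threshold (r = 0.18, 0.01 and -0.11 in prefrontal cortex, hippocampus and hypothalamus, adjusted permutation p = 0.610, 0.966 and 0.763, with adjusted p of 0.567, 0.832 and 0.488 for rho).

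A list of 101 other genes of the vesicle cycle was read beside the members: 15 for the vesicle proton pump and the rest for endocytosis, fusion, vesicle proteins, the active zone and calcium sensing. Of these, 96, 97 and 99 were tested in prefrontal cortex, hippocampus and hypothalamus. None passed limma's threshold in either direction (0% of all genes did), and 0, 0 and 1 had an unadjusted p under 0.05. That gene was Rims4, a RIM family member, in hypothalamus (control 4.46, UCMS 4.33, difference -0.13 ± 0.05, SE; unadjusted p = 0.0307, adjusted p = 0.99999, limma). In prefrontal cortex limma gave its smallest p values to Atp6v1g2, a proton pump subunit (difference 0.14, adjusted p = 0.987), and Ap2s1, a clathrin adaptor subunit (difference 0.14, adjusted p = 0.987). In hippocampus these were Dnm2, a dynamin (difference 0.12, adjusted p = 0.990), and Atp6v1f, another pump subunit (difference -0.08, adjusted p = 0.990), and in hypothalamus, after Rims4, Sncb, a synuclein (difference 0.12, adjusted p = 0.99999). In the brain mean, Syngr2 (difference 0.15, adjusted p = 0.959) and Vamp4 (difference -0.14, adjusted p = 0.959) had an unadjusted p under 0.05 by limma. In the 8 controls, hypothalamus lay wholly below hippocampus for 18 of 97 listed in both (9.12% of all genes) and wholly above for 17 (13.1%). The members had 24 below and 5 above of 35.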

How the data were processed

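RNA levels of 35 vesicle cycle genes were read in the 3 brain tables of the study, 48 libraries from 16 animals. The authors deposited 1 table of normalized values per region. The log2 scale of the deposited values, and a quantile normalization between the libraries of a table, were inferred from the values: libraries of a table shared the same value (to 0.002) at 89.0%, 89.4% and 88.7% of rank positions. Levels therefore carry no depth, whole reads could not be recovered, and tables were not tested against each other. Reads had been mapped to GRCm38.p4 according to the submitters' processing notes. How reads were aligned and counted, and whether by strand, is not given in the sources used here. In RefSeq, 23 of the 35 members overlap another annotated gene, so reads could be shared there. The number of columns without a sample was 0. The whole blood table was not used here, and the deposited tables were the source of every level.

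Groups were treatment within region, as the labels give them. Limma 3.58.1 in R 4.3.3 was fitted to all genes of a table with a trended prior variance, on genes above the lowest 10% by mean level, two-sided, with Benjamini-Hochberg adjustment at 0.05. The brain mean and the differences between regions used animals as units. Relations across animals used 100000 permutations within treatment (scipy 1.17.1, Python 3.11.15). Each script for a test across genes was tested on simulated data. Within a table each library is a separate animal, per the labels.

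Named genes were all members, by role, with tests for the 3 of smallest p per region and for 11 fixed genes. Of the other vesicle genes the 2 with the smallest p per region were taken. Members, roles, pairs and lists were chosen with earlier results of these data known. Alternatives were no filter, no trend, a myelin covariate, normal scores, a replicate block, and leaving out single replicates, hemoglobin-rich libraries, the animal with a differently styled number, or the prefrontal library with low cortical markers, the last chosen after seeing the data.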

Additional observations from a re-analysis of the deposited data

Results flagged for a closer look

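In 32 of 210 groups of 8 libraries (35 members, 3 regions, 2 treatments), the highest or lowest level of a member stood off from the rest by more than Dixon's critical share of the group's range. Chance alone gives such a gap in about 1 in 20 groups, and members measured in the same libraries are not independent. Of these gaps 15 came from control replicate 2 of prefrontal cortex, the library with low cortical and high choroid plexus markers, which had the lowest log2 level for each gene: Syn1 6.426, Syn2 6.419, Syp 8.121, Sv2b 6.466, Slc17a7 7.914, Atp6v0a1 6.624, Rab3a 7.494, Doc2a 3.758, Snap25 8.764, Stx1a 5.013, Erc2 4.957, Snap91 5.983, Amph 5.171, Synj1 5.564 and Sh3gl2 5.892.

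In prefrontal cortex, UCMS replicate 5 was highest for Syp 8.735, Syngr1 8.111, Syngr3 7.244 and Rab3a 8.24, UCMS replicate 4 was highest for Vamp1 5.77, and UCMS replicate 6 was lowest for Unc13a 5.633. In hippocampus, UCMS replicate 3 was highest for Syngr1 7.74, Stx1a 5.803 and Ppfia3 5.892, and the hemoglobin-rich UCMS replicate 6 was lowest for Nsf 7.533 and Snap91 6.257. Also in hippocampus, control replicate 2 was highest for Sv2a 7.573 and control replicate 3 was lowest for Syngr1 7.127. In hypothalamus, control replicate 5 was lowest for Syn2 6.148, Vamp2 8.162 and Amph 5.219, and UCMS replicate 1 was highest for Syt1 7.95.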

How the results depend on the processing

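Under every alternative run for the UCMS comparisons, 0 members passed limma's threshold. The smallest adjusted p of a member was 0.699. Of 3242 values of single members under alternatives, 202 changed sign, none of them past the threshold. The median member difference, leaving out 1 replicate at a time, was 0.01 to 0.11 in prefrontal cortex, -0.01 to 0.03 in hippocampus, 0.04 to 0.06 in hypothalamus and 0.02 to 0.06 for the brain mean, the lowest of prefrontal cortex and of the brain mean being without control replicate 2.

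Counts of members that lay wholly apart between regions moved. In the UCMS libraries, 0 were wholly higher (2.70% of all genes) and 2 wholly lower (1.93%) in hippocampus than in prefrontal cortex, 16 were wholly lower in hypothalamus than in prefrontal cortex (6.94%), and 15 wholly lower in hypothalamus than in hippocampus (7.37%). Without the prefrontal library with low cortical markers the counts wholly lower were 4 for hippocampus (4.01% of all genes) and 20 for hypothalamus (8.14%), against prefrontal cortex in both cases. The cause was not tested.

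Replicate numbers do not pair the animals by the labels. Deviations of same-numbered control and UCMS libraries correlated between -0.45 and 0.55, with 2 of 24 matching best their own number. With a replicate block 0 members passed, 1 in place of 2 had an unadjusted p under 0.05 in hypothalamus (315 in place of 308 of all 14539 genes), and the median differences were 0.08, 0.01 and 0.05 in prefrontal cortex, hippocampus and hypothalamus. Unknown depth leaves the error of low levels, such as Slc17a6 in prefrontal cortex, unresolved.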
